A study of Mus musculus with 28 samples.

Results

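Collagens are the proteins of the extracellular scaffold, and the 44 mouse genes whose symbol reads Col, a number, a and a number were followed here through the ovary of the young female. They were taken by symbol from the 31053 genes of the single-cell gene list and matched by gene identifier to the 44674 genes of the bulk table. All 44 passed the filter on low counts in bulk and all 44 had at least 1 UMI (unique molecular identifier, a counted mRNA molecule) in the single cells. A collagen is built of 3 chains wound into a triple helix. Fibrillar collagens such as types I and III form the fibres of connective tissue, type IV forms the sheet of basement membranes under epithelia, around vessels and around follicles, and type VI forms beaded filaments at the edge of both. In the ovary the stroma between the follicles is rich in fibres, whereas each follicle is wrapped in a basement membrane that separates granulosa cells from the stroma.

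Whole ovaries were profiled as bulk mRNA in 4 groups of 6 libraries, each library from the paired ovaries of a female of 7 to 9 days. WT females were C57BL/6J and Chek2KO females were Chek2-/-, carrying Chek2tm1b(EUCOMM)Hmgu in every cell. Chek2 encodes the checkpoint kinase CHEK2. IR females received 0.5 Gy of radiation to the whole body and nonIR females a sham exposure, and ovaries were taken after 6 h. The same 4 conditions were each profiled by 1 single-cell library from the pooled ovaries of 4 females of 7 days, so the single-cell values carry no replicate and no test.

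Bulk libraries held 17824920 to 32605519 estimated counts, so that 3 counts corresponded to 0.0931 to 0.168 CPM (counts scaled to a common library size). Within a group every pair of libraries differed by more than sampling noise, with chi-square values of 6.25 to 60.5 per degree of freedom. Chek2 itself was lower by 2.58 on the log2 scale in Chek2KO nonIR than in WT nonIR ovaries, with 2.88 to 4.44 CPM against 19.8 to 24.6 CPM and an adjusted p of 7.45e-15 by edgeR. Several libraries stood apart. WT IR library 3 and Chek2KO IR library 2 carried 837 and 852 CPM of neutrophil genes, where every other library had at most 9.62 CPM. Chek2KO nonIR library 6 carried 1013 CPM of kidney genes, where the others had at most 5.09 CPM. Bnip3, a gene of the response to low oxygen, was at 14.0 to 35.5 CPM in 6 libraries (WT IR 4, Chek2KO nonIR 4, 5 and 6, Chek2KO IR 5 and 6) and at 43.0 CPM or more in the other 18. Collagen results are given with and without these libraries where they differed.

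The single-cell libraries held 9488 to 11053 barcodes. After filtering and removal of called doublets 36524 cells remained, with medians of 13908 to 17135 UMIs per cell and library. Among 38132 barcodes, 142 were shared by at least a pair of libraries. Clusters were formed without the collagen genes and their partner genes, and were named from marker lists, with the limits of the naming rule set after the clusters were seen. Fibroblast-like cells (18537 cells, 4 clusters, 7 of 7 markers) stood for the stroma, and granulosa-like cells (12149) for the follicle wall. Perivascular-like cells (1327) carried 5 of 5 markers of smooth muscle and also 7 of 7 fibroblast markers. Epithelial-like cells (947), endothelial-like cells (767), pericyte-like cells (660), oocyte-like cells (584) and macrophage-like cells (136) made up the rest of the named classes used, glial-like cells (42) were too few to compare, and 1375 cells remained unnamed. Dcn, Lum and Ogn stood both among the fibroblast markers and among the partner genes kept out of the clustering.

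Collagen mRNA was concentrated in the stroma. Fibroblast-like cells held 78.3% of the 3549811 collagen UMIs, granulosa-like cells 10.5%, perivascular-like cells 3.34%, epithelial-like cells 1.99%, endothelial-like cells 1.58%, oocyte-like cells 1.38% and pericyte-like cells 1.25%. Taken over the UMIs of a class, collagens were 1.04% of the mRNA of fibroblast-like cells, with 0.958% to 1.12% in the 4 libraries. They were 0.774% in perivascular-like, 0.715% in pericyte-like, 0.371% in endothelial-like, 0.276% in epithelial-like, 0.128% in granulosa-like and 0.0680% in oocyte-like cells. UMI counts do not scale with transcript length as bulk counts do, and each gene is compared with itself between classes. Col1a1, Col1a2 and Col3a1, the chains of types I and III, together gave 59.0% of all collagen UMIs.

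**Figure D1:**
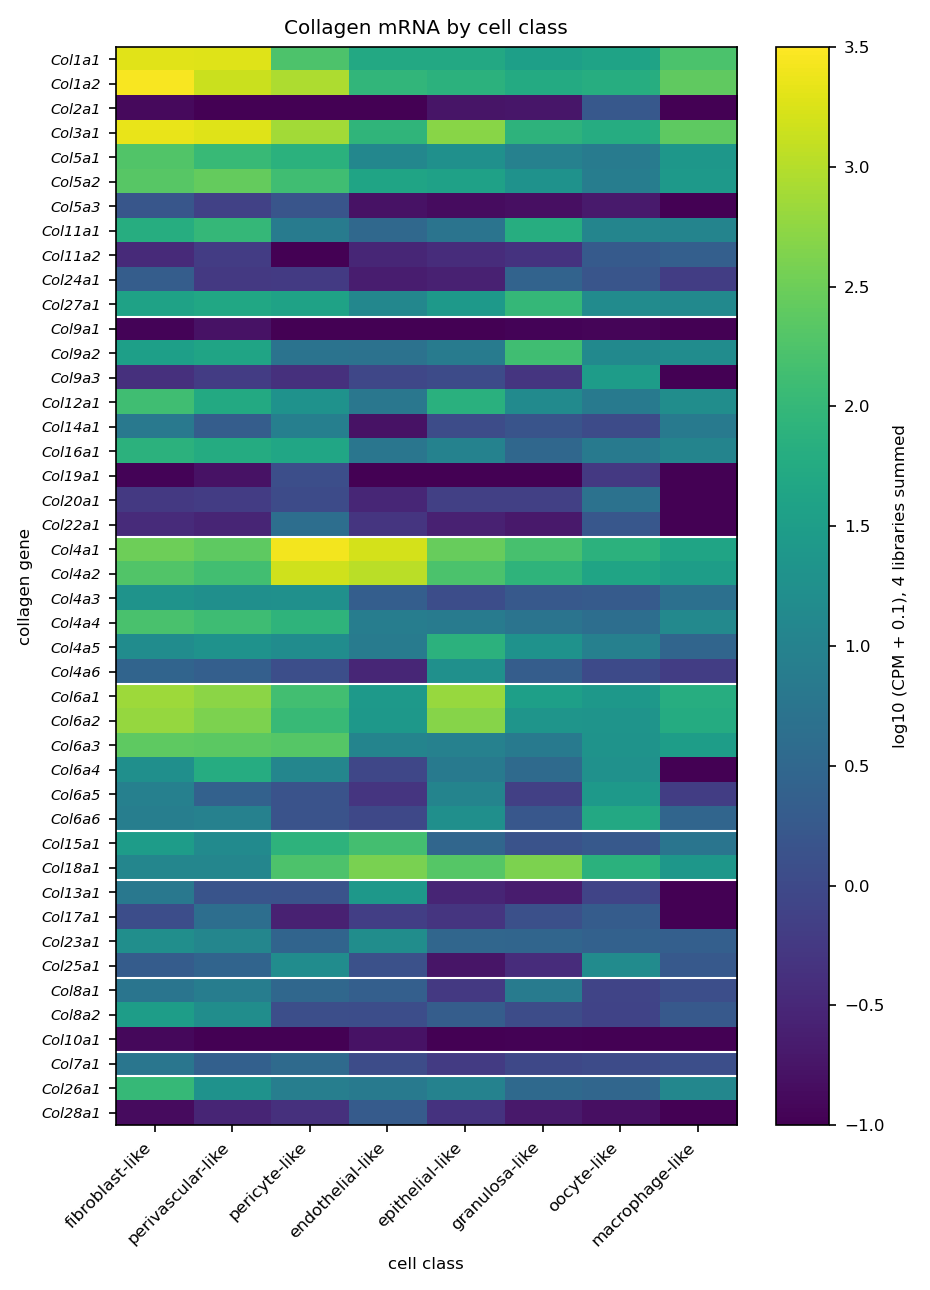
Level of each of the 44 collagen genes (rows, grouped by family with white lines) in the 8 cell classes (columns), as log10 of CPM plus 0.1, with the UMIs of the 4 single-cell libraries summed. Types I and III are brightest in fibroblast-like and perivascular-like cells, Col4a1 and Col4a2 in pericyte-like and endothelial-like cells, and Col9a3 stands out in oocyte-like cells.

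Of the 44 genes, 40 had at least 100 UMIs in the 8 named classes, and the other 4 were too sparse to place (Col10a1, Col19a1, Col28a1 and Col9a1). Fibroblast-like cells had the highest level for 16 of these 40 genes, and in 8 of the 16 every library was above every library of the next class. Oocyte-like cells led for 5 genes (4 without overlap with the next class), pericyte-like cells for 5 (3) and perivascular-like cells for 5 (2). Granulosa-like cells led for 4 (2), endothelial-like cells for 2 (2), epithelial-like cells for 2 (2) and macrophage-like cells for 1 (0), Col11a2 at 0 to 6.92 CPM. Overlap was checked only against the class next in level. Col11a1, counted without overlap for perivascular-like cells, overlapped with fibroblast-like cells. In the 42 glial-like cells, left out of this order, 8 of the 40 genes were above the leading class over all libraries, 3 of them without overlap (Col20a1, Col16a1 and Col14a1). The same class led for 37 of the 40 genes at a finer clustering, for 34 with called doublets kept and for 36 with at least 2000 genes per cell. How often each class led among all genes was not counted, so these numbers only describe the collagen genes.

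Among the fibrillar chains, Col1a2 was the most abundant collagen mRNA of fibroblast-like cells. Its level was 2995 CPM in WT nonIR, 2755 in WT IR, 2759 in Chek2KO nonIR and 2736 in Chek2KO IR cells, against 1380 to 1395 CPM in perivascular-like cells. Fibroblast-like cells therefore exceeded perivascular-like cells in every library, and held 92.9% of all Col1a2 UMIs. Col1a1, the partner chain of type I, did not separate these classes: it ranged from 1852 to 2112 CPM in fibroblast-like and from 1798 to 1962 CPM in perivascular-like cells. Col3a1, the only chain of type III, likewise overlapped, with 1922 to 2600 CPM and 1691 to 2087 CPM. Pericyte-like cells had 835 to 913 CPM of Col1a2 but only 141 to 243 CPM of Col1a1. As a result the number of Col1a2 UMIs per Col1a1 UMI was 1.3 to 1.48 in fibroblast-like cells, 0.711 to 0.769 in perivascular-like cells and 3.73 to 6.46 in pericyte-like cells.

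The promoters of Col1a2 and Col3a1 are shown because these genes had the most collagen UMIs in fibroblast-like cells. In the 250 bases before the start (RefSeq, GRCm38.p6, cut to the longest stretch outside exons of the gene), motif matches on either strand are in capitals: TATAAA (or TTTATA on the other strand) for a TATA box, CCAAT (or ATTGG) for a CCAAT box and GGGCGG (or CCGCCC) for a GC box. Col1a2 is at chr6:4505370-4505492 on the + strand with 2 GC boxes, and Col3a1 at chr1:45311288-45311537 on the + strand with 1 TATA box.
Col1a2: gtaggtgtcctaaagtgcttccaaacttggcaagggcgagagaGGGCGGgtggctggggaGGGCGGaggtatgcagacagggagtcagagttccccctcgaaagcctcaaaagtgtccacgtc
Col3a1: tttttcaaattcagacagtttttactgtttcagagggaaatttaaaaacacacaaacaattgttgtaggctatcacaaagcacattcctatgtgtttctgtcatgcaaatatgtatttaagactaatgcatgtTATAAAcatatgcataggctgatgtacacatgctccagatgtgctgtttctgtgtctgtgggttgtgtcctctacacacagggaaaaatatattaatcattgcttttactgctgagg
Promoter sequence was matched for 35 of the 44 genes. A GC box was found in 21 of these 35 windows and in 32.7% of 32851 promoter windows of 250 bases, a CCAAT box in 13 of 35 and 33.8%, and a TATA box in 5 of 35 and 12.4%. These matches are descriptions of letters and not binding sites.

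Col5a1 and Col5a2, chains of type V that start and regulate fibrils, differed in their leading class. Col5a1 was at 178 to 195 CPM in fibroblast-like and 107 to 111 CPM in perivascular-like cells, whereas Col5a2 reached 216 to 294 CPM in perivascular-like and 175 to 255 CPM in fibroblast-like cells, which overlap. Col11a1 was highest in perivascular-like cells (77.2 to 128 CPM), above granulosa-like cells (56.5 to 69.3 CPM) in every library, but it overlapped with fibroblast-like cells (48.9 to 77.9 CPM). Col27a1, a fibrillar chain of cartilage, was highest in granulosa-like cells, with 94.8 to 116 CPM against 42.0 to 56.6 CPM in perivascular-like cells. Col26a1, a collagen first found in testis and ovary, was higher in the stroma than in any other named class, with 90.9 to 118 CPM in fibroblast-like and 15.8 to 24.3 CPM in perivascular-like cells.

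The 6 chains of type IV followed their arrangement in the genome as head-to-head pairs, with differences within the pairs. Col4a1 and Col4a2, whose annotated starts lie 21 bases apart on chromosome 8, encode the chains of the network found in all basement membranes. Both were highest in pericyte-like cells, at 2406 to 2862 CPM for Col4a1 and 1358 to 1702 CPM for Col4a2. Endothelial-like cells were next, at 1503 to 1727 CPM and 991 to 1194 CPM, below every pericyte-like value. Because fibroblast-like and granulosa-like cells were far more numerous, they nevertheless held most of the Col4a1 UMIs, 45% and 23.9%, against 12.9% in endothelial-like and 8.45% in pericyte-like cells.

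Col4a3 and Col4a4 start 72 bases apart on chromosome 1 and encode chains of the network known from the kidney glomerulus. Col4a4 was at 149 to 192 CPM in fibroblast-like cells, 98.1 to 144 CPM in perivascular-like and up to 119 CPM in pericyte-like cells, and at 10.8 CPM or less in each endothelial-like, epithelial-like, granulosa-like and oocyte-like value. Fibroblast-like cells held 89.8% of its UMIs. Col4a3 was lower, at 18.7 to 22.0 CPM in fibroblast-like cells, and overlapped with perivascular-like (14.1 to 23.9 CPM) and pericyte-like cells (6.99 to 26.9 CPM). Col4a5 and Col4a6 start 1309 bases apart on chromosome X. Both were highest in epithelial-like cells, which stand for the ovarian surface, at 63.6 to 83.6 CPM for Col4a5 and 15.4 to 22.8 CPM for Col4a6. The next classes were granulosa-like cells for Col4a5 (18.4 to 20.9 CPM) and fibroblast-like cells for Col4a6 (2.31 to 3.19 CPM), so that neither overlapped.

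**Figure D2:**
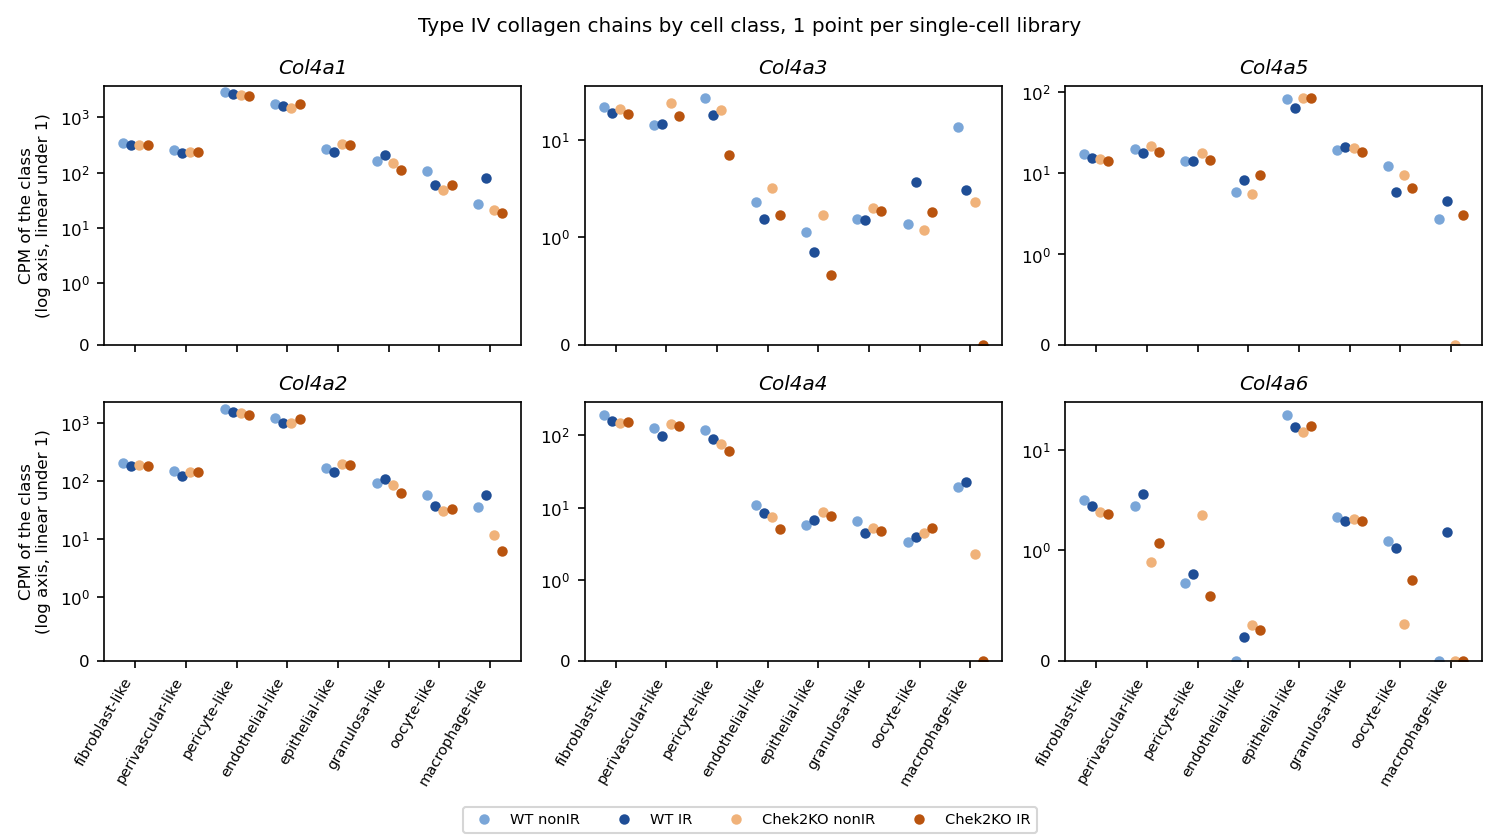
Level of the 6 type IV chains (panels) in the 8 cell classes, in CPM of the class on a log axis that is linear under 1, with 1 point per single-cell library coloured by condition. Col4a1 and Col4a2 peak in pericyte-like and endothelial-like cells, Col4a4 in fibroblast-like, perivascular-like and pericyte-like cells, and Col4a5 and Col4a6 in epithelial-like cells.

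The chains of type VI also differed in their leading class. Col6a1, Col6a2 and Col6a3, the chains of the classic filament, were highest in fibroblast-like cells, at 696, 616 and 237 CPM over the 4 libraries. Epithelial-like cells reached 608 to 672 CPM of Col6a1, which overlaps with the 665 to 744 CPM of fibroblast-like cells. Col6a3 overlapped as well, at 227 to 249 CPM in fibroblast-like and 218 to 239 CPM in perivascular-like cells, whereas Col6a2 did not overlap with the next class. Another class led for Col6a1 at the finer clustering and for Col6a3 with called doublets kept. Col6a4, Col6a5 and Col6a6, alternatives to the third chain that lie side by side on chromosome 9, had other leading classes. Col6a4 was highest in perivascular-like cells, at 54.2 CPM in WT nonIR, 60.4 in WT IR, 69.8 in Chek2KO nonIR and 62.1 in Chek2KO IR cells, and the next class was oocyte-like cells at 15.7 to 25.9 CPM. Fibroblast-like cells had 15.9 to 18.6 CPM of Col6a4 and, by their number, 55.4% of its UMIs. Col6a5 and Col6a6 were highest in oocyte-like cells, at 20.2 to 34.3 CPM and 41.8 to 63.7 CPM, above every library of the epithelial-like cells that came next (5.39 to 17.2 CPM and 10.5 to 22.6 CPM). For Col6a5 this holds for whole classes, since some fibroblast-like clusters, given below, overlapped with oocyte-like cells.

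Of the fibril-associated chains, Col9a2 marked granulosa-like cells, with 114 to 147 CPM against 30.7 to 47.4 CPM in perivascular-like cells and 73.9% of its UMIs. Col9a3, a further chain of type IX, had 88.0% of its UMIs in oocyte-like cells, at 25 to 44.6 CPM. The next of the 8 classes compared had 0.167 to 1.51 CPM, but the few glial-like cells had 0 to 52.2 CPM of Col9a3, from 12 UMIs. Col9a3 shares 234 exon bases with Tcfl5 on the opposite strand, and the part of that overlap was not tested. The partner chain Col9a1 had 8 UMIs in all cells. Among the 8 classes compared, Col20a1 was also highest in oocyte-like cells, at 3.91 to 5.90 CPM, but the few glial-like cells had 254 to 961 CPM. Col12a1 and Col16a1, which bind to the surface of fibrils, were highest of these classes in fibroblast-like cells, at 112 to 147 CPM and 68.5 to 88.5 CPM. Glial-like cells had 185 to 253 CPM of Col16a1.

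Col18a1, the basement membrane collagen that gives rise to endostatin, overlapped between granulosa-like cells (359 to 434 CPM) and endothelial-like cells (372 to 436 CPM), and 82.0% of its UMIs were in granulosa-like cells. Col15a1, its close relative, was instead led by endothelial-like cells, at 113 to 197 CPM against 75.4 to 82.0 CPM in pericyte-like cells. Col13a1, a transmembrane collagen of cell contacts, was also highest in endothelial-like cells, at 17.7 to 33.7 CPM against 4.91 to 8.53 CPM in fibroblast-like cells. Col8a1, a chain of the short network of vessel walls, had 48.2% of its UMIs in unnamed cells. Most of these lay in a cluster of 1066 cells that carried 7 of 7 granulosa markers and was led by Akr1c18 and Sfrp4, with Col8a1 itself among its leading genes at 170 CPM. In the named classes Col8a1 was at 6.86 to 10.5 CPM in perivascular-like and 5.29 to 9.62 CPM in granulosa-like cells, which overlap, and its leading class changed under each of the 3 other settings for cells and clusters.

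Low values of stromal chains outside the stroma were set beside the barcodes that failed the filters, whose RNA was not traced to a source. These held 147 to 474 CPM of Col1a1 by library. Macrophage-like cells ranged from 12.4 to 319 CPM of Col1a1 between libraries, and no macrophage-like value, the lead for Col11a2 included, is read as expression here. Col1a1 in granulosa-like cells was at 23.8 to 43.9 CPM and in oocyte-like cells at 33.4 to 54.0 CPM. The number of Col1a2 UMIs per Col1a1 UMI was 1.37 to 1.84 and 1.37 to 1.67 in these classes, 1.3 to 1.48 in fibroblast-like cells and 0.892 to 1.20 in the failed barcodes. In epithelial-like cells the number of Col1a2 UMIs per Col1a1 UMI was 1.31 to 1.95, which overlaps with the fibroblast-like values. The number of Col3a1 UMIs per Col1a1 UMI there was 6.89 to 13.9, against 1.04 to 1.26 in fibroblast-like cells. In epithelial-like cells only this second ratio was apart from that of the stroma. Granulosa-like cells had 2.18 to 2.61 Col3a1 UMIs per Col1a1 UMI, also apart from the stroma. Oocyte-like cells had 1.24 to 1.59, which overlaps with the fibroblast-like values.

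The 4 fibroblast-like clusters differed in how much collagen they carried. Cluster 8, of 1219 cells led by Cilp, Igfbp3 and Clec3b, held 17899 to 21188 collagen CPM, and cluster 3, of 5494 cells led by Clec3b and Ms4a4d, held 12862 to 13411 collagen CPM. Cluster 2 and the dividing cluster 5 held 8693 to 9749 and 8268 to 9477 collagen CPM. Col1a1 was at 3986 to 5002 CPM in cluster 8, 2417 to 2657 CPM in cluster 3, 1635 to 1892 CPM in cluster 2 and 1497 to 1783 CPM in cluster 5. Col14a1, which binds to fibrils and to decorin, was at 40.2 to 97.6 CPM in cluster 8 and at 6.06 CPM or less in each library of the other 3. Col4a4 was instead highest in cluster 3, at 351 to 433 CPM, against 166 to 231 CPM in cluster 8 and 132 CPM or less in clusters 2 and 5. Col6a5 was at 27.8 to 34.9 CPM in cluster 3 and 24.5 to 37.1 CPM in cluster 8, and at 5.58 CPM or less in clusters 2 and 5. As the cells were clustered on other genes of the same libraries, these values are given as a description.

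Turning to whole ovaries, the order of the chains per length was led by Col3a1 at 191 RPKM (counts scaled for depth and for the length of the gene's exons), Col4a1 at 180, Col6a1 at 158, Col4a2 at 120 and Col1a1 at 100.5, with Col6a2, Col1a2, Col5a1, Col6a3 and Col18a1 between 95.3 and 54.2 RPKM. Lengths are those of merged exons, a limit for genes with many isoforms. Col9a1, Col19a1 and Col2a1 came last, at 0.0097, 0.021 and 0.076 RPKM. Summed over the 44 genes, collagens made up 10889 ± 1356 CPM (SD, n = 6) in WT nonIR, 10798 ± 788 in WT IR, 8940 ± 1264 in Chek2KO nonIR and 9628 ± 1180 in Chek2KO IR ovaries. In bulk, fewer cells of a type and less RNA per cell cannot be told apart.

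The first bulk comparison asked what radiation does in WT ovaries. Of the 44 collagen genes 2 rose, Col2a1 and Col17a1, and none fell (quasi-likelihood test of edgeR, p-values adjusted by Benjamini and Hochberg and called at 0.05 or less). Among the 26790 genes in this fit 2.41% were called, and 1.08% with a 2-fold minimum, which both collagen genes passed. On the log2 scale the collagen genes had a median change of -0.0007, against -0.0041 for all genes, and 22 of 44 were above 0. None of the stromal chains of types I, III, V and VI and none of type IV passed the test.

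Col2a1, the fibrillar chain of cartilage, was at 0 to 0.305 CPM in WT nonIR ovaries (median 0.115) and at 1.48 to 3.92 CPM in WT IR ovaries (median 1.95). The groups did not overlap, and most WT nonIR values were at or below the level of 3 counts. The log2 fold change, 4.22 with an SE of 0.53, had an adjusted p of 1.04e-05 by edgeR, and its size depends on the counts near 0 in the nonIR libraries. Col17a1, the transmembrane collagen of hemidesmosomes in epithelia, was at 1.17 to 1.90 CPM in WT nonIR (median 1.65) and at 2.91 to 5.43 CPM in WT IR ovaries (median 3.44). Here too the groups did not overlap, and the log2 fold change, 1.19 with an SE of 0.18, had an adjusted p of 0.000156 by edgeR. Both calls were kept without each of the 24 libraries in turn. Col27a1 (log2 fold change 0.24) and Col6a6 (-0.19) were next by p, each with an edgeR adjusted p of 0.359. Col6a6 did not overlap between groups (101 to 112 CPM in WT nonIR, 85.8 to 97.7 CPM in WT IR).

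The promoter of Col17a1 is shown because this gene was called after radiation in WT ovaries. It lies at chr19:47692095-47692292 on the - strand (GRCm38.p6), with 2 TATA boxes in capitals.
Col17a1: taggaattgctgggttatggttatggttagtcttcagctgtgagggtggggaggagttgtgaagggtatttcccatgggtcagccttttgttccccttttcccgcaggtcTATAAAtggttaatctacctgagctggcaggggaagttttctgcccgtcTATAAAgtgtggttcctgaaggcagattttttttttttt

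In Chek2KO ovaries no collagen gene passed the test after radiation (edgeR), and over all genes 3 did (0.0112%). At an unadjusted p under 0.05 there were 2 of 44 collagen genes, against 4.40% of all genes, and DESeq2 and limma-voom also called 0 of the 44. Col6a3 had the smallest p, with a log2 fold change of 0.26 (476 to 694 CPM in nonIR, 534 to 791 CPM in IR ovaries), and Col20a1 followed at 0.30 (4.99 to 8.46 CPM and 6.44 to 9.05 CPM). Col4a1 (0.18) and Col4a3 (-0.29) were next, and the edgeR adjusted p of all 4 was 1. Col2a1 was at 0.0383 to 0.517 CPM in Chek2KO nonIR and 0.109 to 0.354 CPM in Chek2KO IR ovaries, which overlap. Col17a1 was at 0.807 to 1.79 CPM and 1.04 to 1.24 CPM, which overlap as well. On the log2 scale the median change was 0.0773 for the collagen genes and 0.0000 for all genes, with 33 of 44 above 0.

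Whether radiation acted differently in the genotypes was tested by the interaction. The same 2 collagen genes passed it, against 1.03% of all genes. Col2a1 rose more in WT than in Chek2KO ovaries by a log2 difference of 4.48 (SE 0.77), with an adjusted p of 0.00153 by edgeR, and kept its call in each of 24 fits without 1 library. Col17a1 rose more in WT by 1.10 (SE 0.26), with an adjusted p of 0.0356 by edgeR. Its call was lost in 11 of the 24 fits, without WT nonIR library 2, 3 or 4, WT IR library 4 or 6, Chek2KO nonIR library 2 or 5, or Chek2KO IR library 2, 3, 4 or 5, with log2 differences of 0.91 to 1.18 over all 24. The call was also lost with the replicate number as a block, under limma-voom (1.02), without the libraries high in neutrophil or kidney genes (1.19) and without those low in Bnip3 (1.17).

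**Figure D3:**
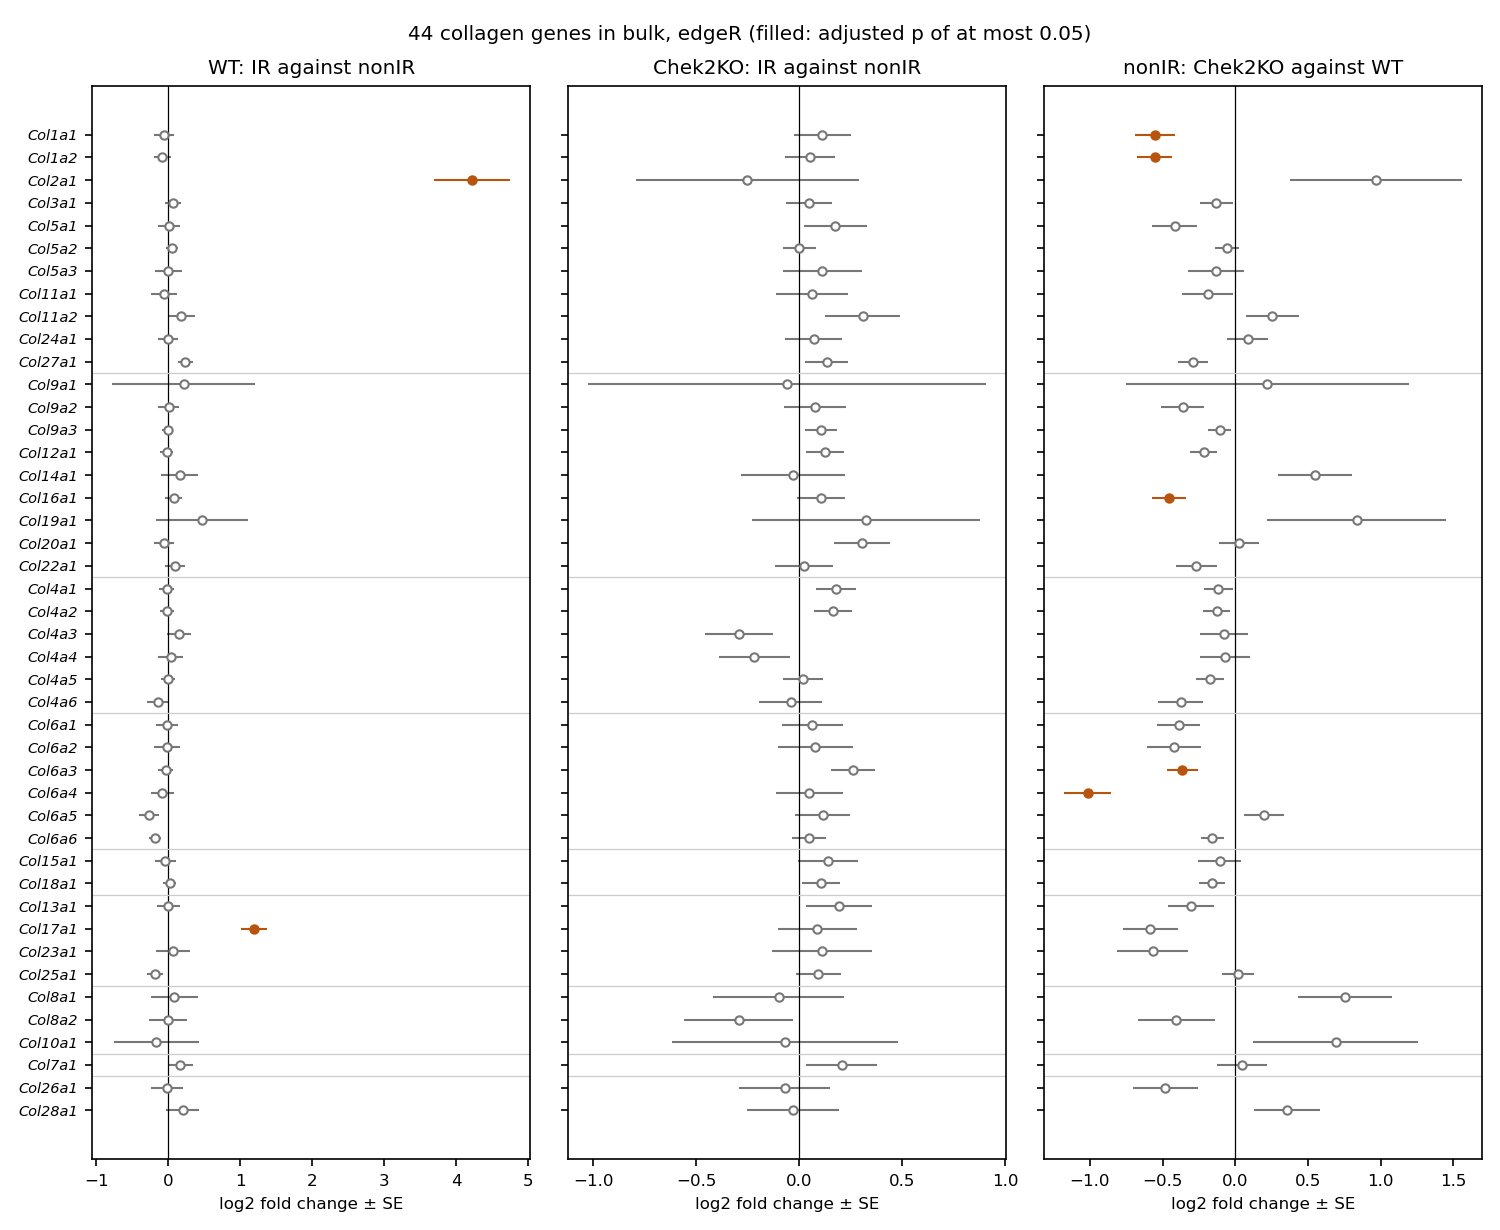
Log2 fold change ± SE of the 44 collagen genes (rows, grouped by family) in 3 bulk comparisons of 6 against 6 libraries, with filled points where edgeR called the gene at 0.05. The x axes differ in range between panels: Col2a1 (4.22) and Col17a1 (1.19) rose in WT, no point is filled in Chek2KO, and 5 genes were lower in Chek2KO than in WT without radiation.

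In single cells both genes were higher in the oocyte-like cells of the WT IR library. Over all cells Col2a1 was at 0.0592 CPM in WT nonIR and 0.725 CPM in WT IR, whereas Col17a1 was at 1.32 and 1.44 CPM. Col2a1 had 3 UMIs in WT nonIR, 114 in WT IR, 1 in Chek2KO nonIR and 2 in Chek2KO IR oocyte-like cells. As levels these were 0.104 CPM (95% exact Poisson limits 0.0214 to 0.303), 8.50 (7.01 to 10.2), 0.0842 (0.00213 to 0.469) and 0.112 CPM (0.0135 to 0.404), limits that cover counting error only. The WT IR library thus stood above the other 3. The ratio of WT IR to WT nonIR, with 0.5 UMI added to each sum, was 70.6, with limits of 27.3 to 403 from the sums as counted. A Col2a1 UMI was seen in 43 of 172 WT IR cells (25%, exact binomial limits 18.7% to 32.2%), in 3 of 196, 1 of 75 and 2 of 141 cells of the other libraries, and in 0.122% to 0.263% of granulosa-like cells. No cell held more than 7. Over all cells, 77.4% of the 155 Col2a1 UMIs were in oocyte-like cells.

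Col17a1 was at 1.38, 4.85, 1.18 and 1.17 CPM in the oocyte-like cells of the same libraries (40, 65, 14 and 21 UMIs), a WT ratio of 3.49 (2.33 to 5.34). Most Col17a1 UMIs were elsewhere: granulosa-like cells held 39.3% and fibroblast-like cells 32.2%, at 1.28 and 1.12 CPM in WT nonIR and WT IR granulosa-like cells and 1.38 and 1.20 CPM in fibroblast-like cells. The level was highest in perivascular-like cells, at 2.99, 5.16, 6.26 and 2.05 CPM in the order of libraries above (14, 20, 21 and 7 UMIs), which overlaps with the oocyte-like values. Failed barcodes had 0.444 to 1.77 CPM of Col17a1, from 1 to 3 UMIs a library, and no Col2a1 UMI. Depth moved with the condition in these cells, since the median was 181498 UMIs per oocyte-like cell in WT nonIR and 15869 in WT IR. Among cells with at least 50000 UMIs, 131 in WT nonIR and 51 in WT IR, the ratios were 65.7 (25.3 to 376) for Col2a1 and 3.69 (2.43 to 5.72) for Col17a1. A Col2a1 UMI was seen in 33 of these 51 WT IR cells (64.7%, exact binomial limits 50.1% to 77.6%) and in 3 of the 131 WT nonIR cells. In the opposite direction, Col9a2 and Col11a1 had the lowest WT ratios in oocyte-like cells, 0.315 (0.250 to 0.391) and 0.346 (0.264 to 0.443). Among cells with at least 50000 UMIs these were 0.230 (0.172 to 0.297) and 0.307 (0.227 to 0.403). In oocyte-like cells Col9a2 was at 21.8 CPM in WT nonIR and 6.86 CPM in WT IR, below the 41.0 and 40.2 CPM of barcodes that failed the filters in the same libraries, and Col11a1 was at 15.4 and 5.29 CPM, below 25.6 and 23.1 CPM. The RNA of the failed barcodes was not traced to a source, so this comparison cannot decide whether the 2 genes were expressed in oocyte-like cells. Their levels are not read as expression here.

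**Figure D4:**
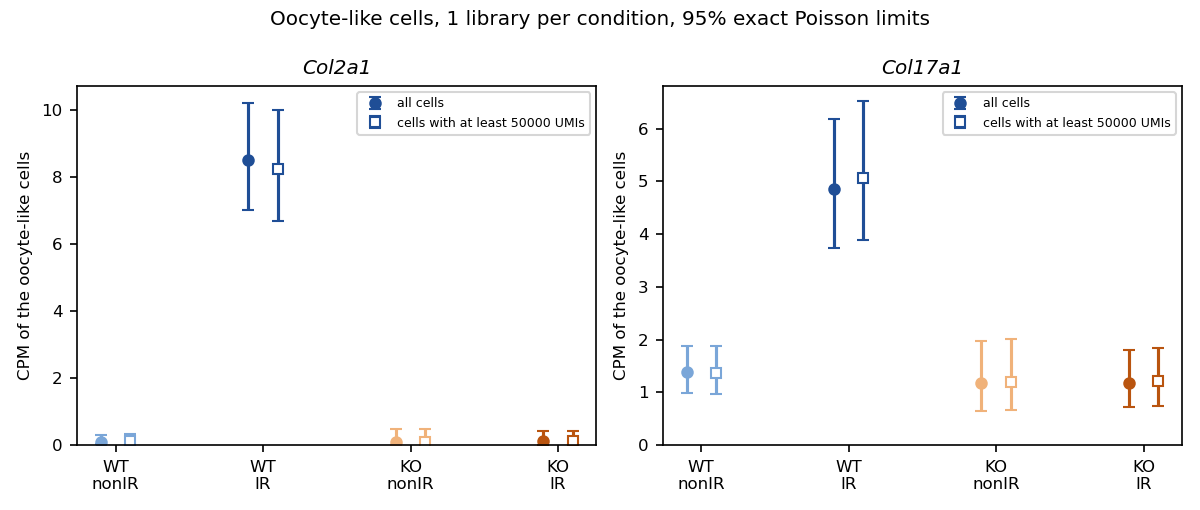
Col2a1 and Col17a1 in oocyte-like cells, in CPM of these cells with 95% exact Poisson limits, with 1 single-cell library per condition (KO is Chek2KO), for all cells (filled circles) and for cells with at least 50000 UMIs (open squares). The WT IR library stands above the other 3 for both genes and both sets of cells.

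The stromal collagens were set side by side between the IR and the nonIR library of each genotype. In fibroblast-like cells 35 collagen genes had at least 100 UMIs over a pair of libraries. In WT the median ratio of IR to nonIR was 0.920, and the counting limits lay away from 1 for 24 genes, 6 above and 18 below (3 above and 20 below with at least 2000 genes per cell). In Chek2KO the median was 0.954, with 22 genes away from 1, 2 above and 20 below. Over all genes with at least 100 UMIs in these cells the medians were 1.003 and 1.007. Of these, 45.2% of 12920 genes in WT (20.4% below) and 37% of 12914 genes in Chek2KO (15.3% below) lay away from 1. These shares were not matched to the collagen genes in UMIs. Limits narrow as UMIs rise, and Col1a2 alone had 382292 UMIs over the WT pair. Each ratio compares 1 library with 1 other, so that the spread between ovaries is not in these limits. The lowest WT ratios were those of Col14a1 at 0.402 (0.349 to 0.462), Col13a1 at 0.764 (0.672 to 0.867) and Col5a3 at 0.767 (0.570 to 1.02), and the highest those of Col24a1 at 1.19 (0.948 to 1.51), Col26a1 at 1.15 (1.11 to 1.19) and Col27a1 at 1.15 (1.09 to 1.21). In Chek2KO the lowest were Col6a5 at 0.564 (0.497 to 0.638), Col9a2 at 0.732 (0.684 to 0.783) and Col25a1 at 0.741 (0.567 to 0.963), and the highest Col5a3 at 1.80 (1.34 to 2.46), Col11a1 at 1.17 (1.12 to 1.22) and Col17a1 at 1.05 (0.713 to 1.56).

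The makeup of the stroma differed between the same libraries. The dividing cluster 5, with the lowest collagen level of the 4 in each library, was 16.7% of fibroblast-like cells in WT nonIR and 22.3% in WT IR, and 16.4% in Chek2KO nonIR and 21.3% in Chek2KO IR. Its part in the ratios was not tested. Cluster 8, which carried Col14a1, was 8.90% of fibroblast-like cells in WT nonIR, 5.07% in WT IR, 6.65% in Chek2KO nonIR and 5.49% in Chek2KO IR. Within cluster 8 Col14a1 was at 97.6, 40.2, 59.1 and 78.2 CPM in the same order, so that WT IR was lowest there too. Cluster 3, which carried Col6a5, was 30.9% of fibroblast-like cells in Chek2KO nonIR and 23.0% in Chek2KO IR. Within cluster 3 Col6a5 was at 34.9 and 31.1 CPM, and within cluster 8, which also carried it, at 37.1 and 25.4 CPM. In bulk Col14a1 was at 5.39 to 10.9 CPM in WT nonIR and 4.63 to 11.3 CPM in WT IR ovaries, which overlap. Col6a5 was at 43.95 to 67.6 CPM in Chek2KO nonIR and 53.1 to 64.9 CPM in Chek2KO IR ovaries, which overlap too, with a log2 fold change of 0.11 that did not pass the test.

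Outside the fibroblast-like cells, ratios are given as their range over the genes with at least 100 UMIs. In granulosa-like cells they ran from 0.687 (Col4a4) to 1.35 (Col6a4) in WT and from 0.552 (Col14a1) to 1.28 (Col8a1) in Chek2KO. In perivascular-like cells they ran from 0.707 (Col15a1) to 1.53 (Col26a1) in WT and from 0.650 (Col9a2) to 1.14 (Col27a1) in Chek2KO. Pericyte-like cells gave 0.754 (Col4a4) to 1.72 (Col1a1) in WT and 0.796 (Col4a4) to 1.26 (Col5a1) in Chek2KO. Endothelial-like cells gave 0.756 (Col13a1) to 1.28 (Col6a3) in WT and 0.680 (Col23a1) to 1.58 (Col1a1) in Chek2KO, and epithelial-like cells 0.583 (Col6a6) to 1.81 (Col1a1) in WT and 0.776 (Col1a1) to 1.26 (Col6a5) in Chek2KO. The Col1a1 levels behind its 4 ratios named here (WT in pericyte-like, Chek2KO in endothelial-like and both genotypes in epithelial-like cells) were below those of the failed barcodes of the same libraries (258 CPM in WT nonIR, 474 in WT IR, 228 in Chek2KO nonIR and 147 in Chek2KO IR), and these 4 are not read as a difference in expression. In oocyte-like cells of Chek2KO the ratios ran from 0.699 (Col4a5) to 1.57 (Col18a1), without the WT values of Col2a1 and Col17a1. Each end of a range is the extreme of many genes. Counting limits included 1 for Col6a3 in WT endothelial-like cells. In Chek2KO they also did so for Col27a1 in perivascular-like, Col4a4 and Col5a1 in pericyte-like, Col23a1 in endothelial-like and Col6a5 in epithelial-like cells. These ends are not read as a difference.

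Genotypes were compared in bulk without radiation. Here 5 of the 44 genes were lower in Chek2KO than in WT ovaries and none was higher, where 5.34% of all genes were called, 2.22% as lower. With a 2-fold minimum 1 collagen gene was called, against 0.788% of all genes. At an unadjusted p under 0.05 there were 17 of 44 collagen genes and 21.6% of all genes. On the log2 scale the median change was -0.1436 for the collagen genes and 0.0104 for all genes, and 13 of 44 were above 0. The called genes were 2 of 11 fibrillar chains, 2 of 6 type VI chains and 1 of 9 fibril-associated chains, and none of the 6 type IV chains passed.

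Col6a4 had the largest fold change of the 5. It was at 79.1 to 118 CPM in WT nonIR (median 103) and at 30.9 to 65.1 CPM in Chek2KO nonIR ovaries (median 49.4), groups that did not overlap. Its log2 fold change, -1.02 with an SE of 0.16, had an adjusted p of 0.00101 by edgeR. Irradiated ovaries were at 80.3 to 107 CPM in WT IR and 31.8 to 69.6 CPM in Chek2KO IR. Col6a4 shares 162 and 127 exon bases with the unnamed genes Gm47575 and Gm36993 on the opposite strand. Its promoter is shown because of this difference, and lies at chr9:106096784-106096941 on the - strand (GRCm38.p6), with 1 CCAAT box and 2 GC boxes in capitals.
Col6a4: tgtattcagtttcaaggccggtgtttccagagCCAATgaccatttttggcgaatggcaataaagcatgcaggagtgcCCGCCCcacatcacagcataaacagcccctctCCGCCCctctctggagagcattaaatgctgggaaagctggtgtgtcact

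Both chains of type I were lower. Col1a2 was at 1040 to 1565 CPM in WT nonIR (median 1220) and 749 to 992 CPM in Chek2KO nonIR ovaries (median 878), without overlap, and gave a log2 difference of -0.55, SE 0.12, adjusted p 0.0112 by edgeR. Col1a1 was at 572 to 1046 CPM (median 784) and 444 to 630 CPM (median 537), groups that overlapped, and also gave -0.55 (SE 0.14), adjusted p 0.0221 by edgeR. Col16a1 went from 96.8 to 156 CPM (median 112) to 75.2 to 101 CPM (median 83.8), with a log2 difference of -0.45, SE 0.12, and an adjusted p of 0.0251 by edgeR. Col6a3 went from 536 to 852 CPM (median 712) to 476 to 694 CPM (median 527), with a log2 difference of -0.36, SE 0.11, and an adjusted p of 0.0453 by edgeR. The groups of Col16a1 and Col6a3 overlapped. Col3a1, the third main fibrillar chain, was at 1737 to 2206 CPM and 1411 to 2445 CPM and did not pass. The value of 2445 CPM was that of Chek2KO nonIR library 6, which was high in kidney genes. The other Chek2KO nonIR libraries were at 1411 to 1772 CPM.

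**Figure D5:**
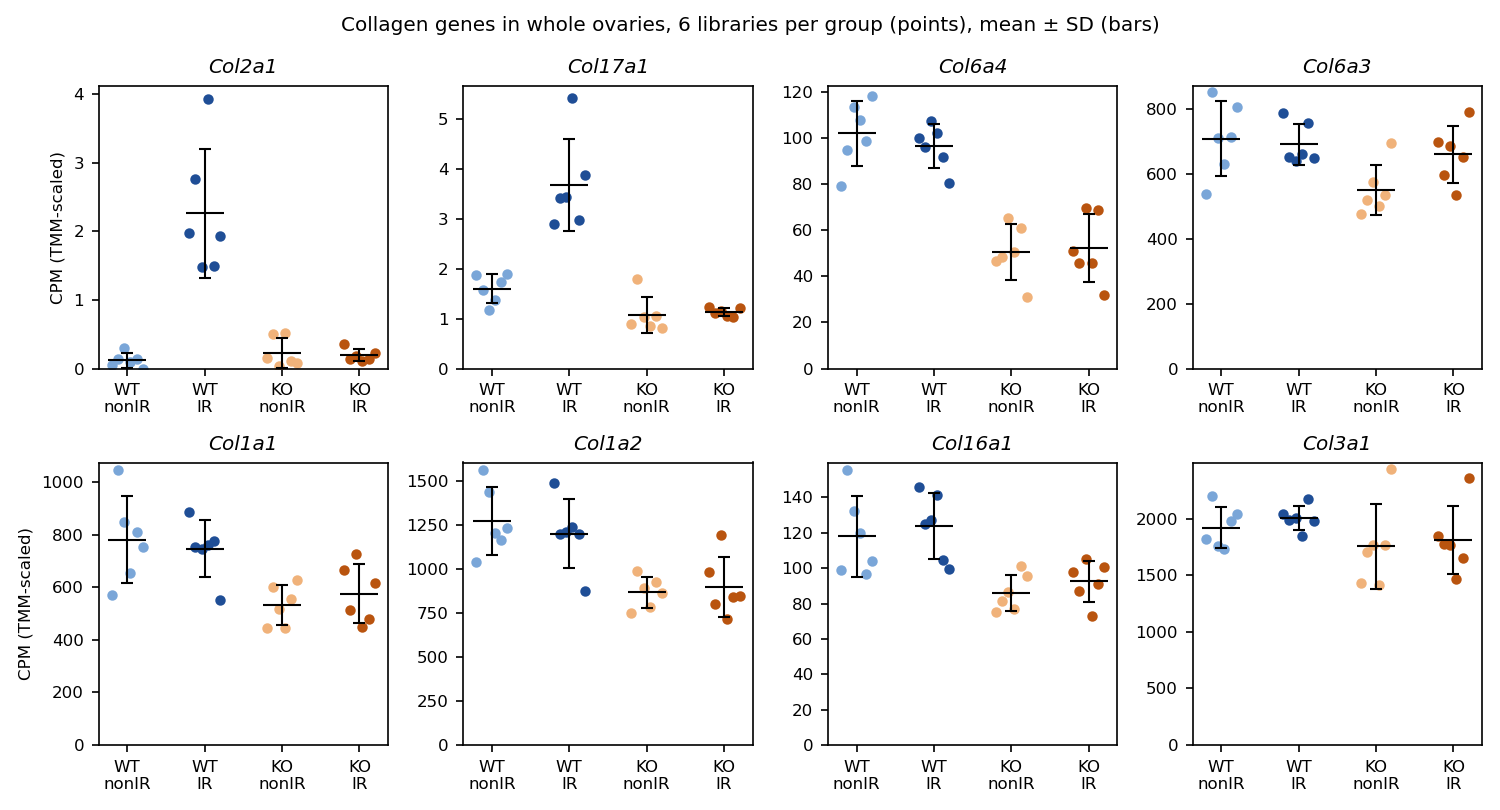
CPM of 8 collagen genes in whole ovaries, with 6 libraries per group as points, the mean as a dash and the SD as bars (KO is Chek2KO). Col2a1 and Col17a1 stand high in WT IR libraries, and Col6a4 is lower in Chek2KO than in WT ovaries with or without radiation.

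The calls differed in how far they rested on single libraries. Col6a4 and Col1a2 kept theirs in 24 of 24 fits without 1 library. Col1a1 lost its call without WT nonIR library 2 or 3 or Chek2KO nonIR library 1 or 4, and Col16a1 without those 4, WT nonIR library 4 or Chek2KO nonIR library 2. Col6a3 kept its call in 8 of 24 fits, those without WT nonIR library 1, WT IR library 1, 4 or 6, Chek2KO nonIR library 6 or Chek2KO IR library 2, 4 or 6. The number of collagen genes called ranged from 2, without WT nonIR library 2 or 3 or Chek2KO nonIR library 1 or 4, to 10 without Chek2KO nonIR library 6, and it was 3 without WT nonIR library 4. For these fits the share of all genes called is not given, so the range is not read as particular to collagen genes. Without the 6 libraries low in Bnip3, 3 of them Chek2KO nonIR, 11 genes were called, all lower, where 7.81% of all genes were called and 4.21% as lower. These included Col6a4, Col16a1, Col6a3, Col6a1, Col6a2, Col5a1 and Col26a1, but not Col1a1 (log2 fold change -0.58) or Col1a2 (-0.54).

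The same genes were read in the single-cell libraries, where the genotypes have 1 nonIR library each and no test. Over all cells, Col6a4 was at 12.4 CPM in WT nonIR and 11.9 CPM in Chek2KO nonIR, Col1a2 at 1167 and 1158 CPM, Col1a1 at 816 and 836 CPM, Col16a1 at 36.2 and 32.3 CPM and Col6a3 at 96.2 and 106 CPM. Chek2 was at 10.9 and 3.49 CPM. In bulk, summed perivascular markers were at 269 to 405 CPM in WT nonIR and 168 to 314 CPM in Chek2KO nonIR ovaries, and fibroblast markers at 1050 to 1175 CPM and 919 to 1101 CPM, ranges that overlap and were not tested as sums. None of 5 perivascular markers and 1 of 7 fibroblast markers (Mfap4) passed the test, as did 2 of 6 pericyte markers (Cspg4 and Notch3), all lower in Chek2KO. The 6 pericyte markers nevertheless had a median log2 change of 0.095, against -0.417 for perivascular and -0.105 for fibroblast markers. Called higher in Chek2KO were 1 of 7 granulosa, 1 of 4 steroidogenic and 1 of 6 markers of oviduct and uterine epithelium. The part of cell composition in the collagen differences was not tested. Nnt, which is deleted in part in C57BL/6J mice, was higher by 1.04 on the log2 scale in Chek2KO ovaries in bulk but not in single cells (5.69 CPM in WT nonIR and 5.16 CPM in Chek2KO nonIR), and strain background and genotype cannot be told apart.

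Genes that modify, cut, cross-link, bind or degrade collagen were read from fixed lists. Of 68 such partner genes, all tested, 1 rose after radiation in WT ovaries, where 1.53% of all genes rose, and none passed the test in Chek2KO ovaries or in the interaction (edgeR). The gene that rose was Lama5, a laminin chain of basement membranes, from 91.5 to 109 CPM in WT nonIR to 131 to 212 CPM in WT IR ovaries, or 0.58 on a log2 scale (SE 0.13) with an adjusted p of 0.00864 by edgeR. Between genotypes 5 of 68 were lower in Chek2KO nonIR ovaries and none was higher, beside 2.22% of all genes lower. Loxl3, an enzyme that cross-links collagen, was 1 of 5 cross-linking genes, at 7.92 to 9.93 CPM in WT and 5.54 to 7.73 CPM in Chek2KO ovaries, without overlap (log2 fold change -0.43, adjusted p 0.0169 by edgeR). Fkbp10, a chaperone of type I collagen, was 1 of 18 genes of chain modification and folding (-0.30), and Mmp2, a gelatinase, 1 of 11 of breakdown (-0.31). Nid2 (-0.35) and Lama2 (-0.31) were 2 of 11 basement membrane partners, while none of 8 propeptide proteases, 6 fibril-binding proteoglycans or 9 collagen receptors passed. The 68 genes had a median log2 change of -0.127 between genotypes, against 0.0104 for all genes. Without the libraries high in neutrophil or kidney genes 8 were lower (3.75% of all genes were called, 1.76% as lower), and without those low in Bnip3 14 were lower (4.21% of all genes) and 2 higher. Fkbp10 and Mmp2 were called in both of these fits, Loxl3 only in the first, and Nid2 and Lama2 in neither.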

How the data were processed

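Bulk values are estimated counts per gene as deposited by the authors, who trimmed reads with Trim Galore 0.6.5 and quantified transcripts with Salmon 1.3.0. They were rounded, 26790 genes with at least 10 counts over the 24 libraries were kept, and edgeR 4.0.16 fitted all 4 groups together with TMM scaling and Benjamini-Hochberg adjustment. On simulated data the fit recovered 88 of 100 genes changed 2-fold and 71 of 100 changed 1.5-fold. The changed genes were drawn only from genes above a minimum mean level. This recovery therefore does not cover low genes such as Col2a1, Col10a1 and Col19a1. Libraries that stood apart were not simulated as such. Single-cell values are deposited UMI counts from the authors' Cell Ranger output on mm10. Cells with at least 1000 genes, at most 20% mitochondrial and at most 50% ribosomal UMIs were kept, and doublets were called by Scrublet, not by the authors' tools. Clusters came from scanpy 1.11.5 (2000 variable genes without collagen and partner genes, 30 components, resolution 0.5). A marker counted as on at 25% of cells and 2 times the median cluster, and a class needed 60% of its list and at least 3 markers. A further rule on the leading genes of a cluster applied. Under it the cluster of 1066 cells with 7 of 7 granulosa markers stayed unnamed, so its UMIs are outside the granulosa-like values. UMIs were summed per class and library. Ratios were formed with 0.5 UMI added to each sum. Their exact Poisson limits come from the sums as counted and cover counting error only. The sources do not say whether females of a group came from separate litters, so p-values measure the spread between these libraries.

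The members, gene lists and tests were chosen with earlier results of these data known. Genes given by value were the members called in a bulk comparison (or else the 4 with the smallest p), the 12 with the most UMIs, the highest in each class, the type IV chains and the extreme ratios per class. Others, such as Col9a3, Col15a1 and the clusters' Col6a5, were chosen after their values were seen. Alternatives were DESeq2, limma-voom, RLE scaling, other filters, a replicate block, each genotype fitted alone, leaving out libraries, and other cluster settings. Promoter sequences are from RefSeq on GRCm38.p6.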

Additional observations from a re-analysis of the deposited data

Results flagged for a closer look

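Within groups of 6 bulk libraries, 140 sets of values (a collagen gene or the collagen sum in a group) were checked. These did not cover each of the 44 genes in each group. In 12 sets a library stood apart by Dixon's criterion, where chance gives about 1 in 20 groups. Chek2KO nonIR library 6, which was high in kidney genes and low in Bnip3, gave 6 of them. It was high in Col14a1 at 18.9 CPM (others 7.12 to 11.4), in Col3a1 at 2445 CPM (1411 to 1772), in Col4a5 at 91.2 CPM (61.0 to 71.2) and in Col4a6 at 17.9 CPM (9.83 to 12.6), and low in Col25a1 at 10.0 CPM (14.7 to 16.9) and in Col6a6 at 65.4 CPM (95.9 to 104).

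Chek2KO nonIR library 2 was high in Col13a1 at 14.3 CPM (others 8.74 to 10.3) and in Col17a1 at 1.79 CPM (0.807 to 1.06). Among Chek2KO IR libraries, library 1 was high in Col4a1 at 1740 CPM (1265 to 1433), library 3 in Col4a4 at 69.0 CPM (28.7 to 39.3) and library 6 in Col8a1 at 32.4 CPM (7.85 to 15.9). WT nonIR library 1 was low in Col9a2 at 46.2 CPM (66.8 to 77.9).

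The response to radiation differed between genotypes, by the interaction in edgeR, for Col2a1 with a log2 difference of 4.48 and for Col17a1 with 1.10. The Col17a1 call was lost in 11 of 24 fits without 1 library, under limma-voom and with a replicate block. It was also lost without the libraries high in neutrophil or kidney genes and without those low in Bnip3.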

How the results depend on the processing

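In WT ovaries after radiation 2 collagen genes were called in every fit without 1 library (2 to 2), and 3 with WT libraries fitted alone or without the libraries low in Bnip3. The share of all genes called in these WT refits, and in the interaction refits below, is not given, so the counts are not read against it. In Chek2KO ovaries 0 were called (0 to 0). The interaction gave 2 genes, 1 to 2 without 1 library, and 1 (Col2a1) under limma-voom, without the libraries high in neutrophil or kidney genes, and without those low in Bnip3. Between genotypes 5 genes were called, 2 to 10 without 1 library, 1 with a 2-fold minimum and 11 without the libraries low in Bnip3. Of the partner genes 5 were called, 8 without the libraries high in neutrophil or kidney genes and 16 without those low in Bnip3. The causes were not tested. Both of these library sets were chosen after seeing the data. No call changed direction.

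Replicate numbers were not taken to pair the libraries, since not every correlation of same-numbered libraries was over 0.1. They ran from -0.0469 to 0.397 in WT and from 0.0577 to 0.657 in Chek2KO, where 5 of 6 were over 0.1 and 7 of 12 libraries correlated best with their own number. A replicate block left 1 interaction call (Col2a1, not Col17a1) and gave 6 genotype calls. With the block in each genotype alone, chosen after seeing the data, 3 collagen genes were called in WT and 0 in Chek2KO. For these block fits too the share of all genes called is not given, so their counts are not read against it.

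Under 3 counts a gene was below 0.0931 to 0.168 CPM, which limits Col9a1, Col19a1 and Col2a1 in nonIR ovaries. A finer clustering, kept doublets, another gene minimum or another scaling left 20 to 25 fibroblast-like ratios away from 1. Single-cell conditions have 1 library each, so no difference between them has a replicate check.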
